A study of Rattus norvegicus with 12 samples.

Results

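In cardiac fibroblasts, 70 genes were lower at passage 6 than at passage 3 on both growth surfaces: each was at least 1.5 times as abundant in the lowest of the 6 passage 3 libraries as in the highest of the 6 passage 6 libraries, whether the cells had been on plastic or on soft gel. The genes were chosen by these levels, in CPM (the count of a gene divided by the library's total and scaled up by 1e+06), and a gene also had to reach 1 CPM in every passage 3 library. The 70 genes are 0.215% of the 32623 Ensembl rat genes in the table, and all 70 were among the 14660 genes that passed the filter on low counts. The direction and the size of the passage difference chose the genes, so they are described without a test. The substrate difference within a passage was not part of the rule and was tested. The rule did use the levels of the same plastic and soft gel libraries, so these tests are not independent of it.

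The libraries came from fibroblasts of adult rat ventricles, labelled wild-type and grown in DMEM/F-12 with 20% fetal bovine serum. The 4 groups had 3 libraries each, from cells kept for 48 h on tissue culture polystyrene (plastic) or on a flat soft poly(ethylene glycol) norbornene hydrogel (soft gel, or the gel), either at the earlier passage or at the later one. All groups shared the medium and the heart source, and the labels do not say whether the biological replicates were separate animals. The title of the series names stiffness as a modulator of activation, senescence and inflammatory secretion.

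Fibroblasts hold and renew the matrix of the heart, and in injury or on a rigid dish they turn into myofibroblasts, contractile cells that lay down collagen. Primary cells plated again and again change further, and a late passage may hold cells that divide less and secrete more. Soft gels are used because they come closer to the stiffness of healthy muscle than plastic does.

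The sources used here pair no Ensembl identifier with a gene name, so the genes are given by identifier, their functions are not stated, and the fibroblast label could not be checked against marker genes. Libraries held between 47834926 and 71464905 counts. On the second principal component of the 500 most variable genes, with 27.2% of the variance, both passage 6 libraries of number 3 stood apart at 50.4 and 45.8; the range of the remaining 10 was -28.6 to 6.02. Plastic and gel libraries with the same number at one passage deviated together over all genes, and each such couple is called a pair. Numbers did not pair the passages, so a passage difference and a difference between the cultures used at each passage cannot be told apart.

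The 70 genes took 0.336% ± 0.0200 of all counts on plastic and 0.352% ± 0.0344 on the gel at passage 3, and 0.0883% ± 0.0224 and 0.0913% ± 0.00651 at passage 6 (SD, n = 3). In bulk RNA, fewer cells that express a gene and less RNA per cell cannot be told apart. The mean level of a gene at passage 3 ran from 1.61 to 442.5 CPM with a median of 16.5, close to the 16.15 CPM of all genes that passed the filter. At passage 6 the means ran from 0.0960 to 149.6 CPM with a median of 2.86. Of the 70 genes, 8 averaged over 100 CPM at passage 3. The 4 most abundant made up 48.8% ± 2.29 of the summed CPM of all 70 on plastic and 43.2% ± 1.43 on the gel at passage 3. At passage 6 these shares were 45.2% ± 4.46 on plastic and 46.6% ± 5.39 on the gel.

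The ratio of group means between passage 3 and passage 6 had a median of 3.99 on plastic, between 1.86 and 26.5, and of 4.34 on the gel, between 1.75 and 50.9. On plain CPM it was larger on the gel for 40 genes and larger on plastic for 30, a split not counted here over all genes. At least 4-fold differences on both substrates were seen for 28 genes. Most genes stayed detectable, since 40 genes kept at least 1 CPM in all 6 passage 6 libraries and 8 were under 1 CPM in all of them. The ratio that chose the genes, lowest passage 3 level over highest passage 6 level, had a median of 1.82. It was under 2 for 45 genes, at least 3 for 13 and at least 5 for 4. The 3 genes just inside the threshold had ratios of 1.5006, 1.5016 and 1.5162, and the 3 just outside had 1.4773, 1.4757 and 1.4755. A further 43 genes met the ratio but not the floor of 1 CPM.

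**Figure D1:**
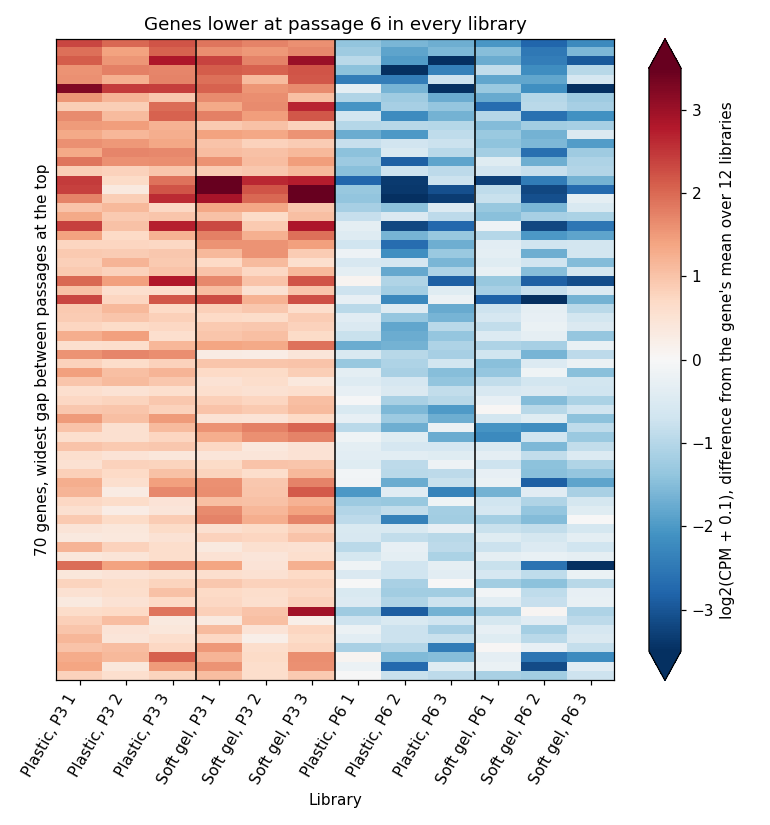
Level of each of the 70 genes (rows) in each of the 12 libraries (columns), as log2(CPM + 0.1) minus the gene's mean over all libraries, with colours capped at both ends of the scale. Every row is redder in the 6 passage 3 columns than in the 6 passage 6 columns by the rule, and rows differ in how much the 3 libraries of a group vary.

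The most abundant of the genes by mean passage 3 level was ENSRNOG00000004346. It stood at 434, 264 and 379 CPM on plastic and 556, 392 and 629 on the gel at passage 3, and at 119.7, 52.97 and 65.9 on plastic and 81.7, 40.3 and 45.6 on the gel at passage 6. In each of the 4 groups library 2 was the lowest. The second, ENSRNOG00000008336, held 460.5, 486 and 445 CPM on plastic and 402, 386 and 464 on the gel at passage 3. At passage 6 it held 188, 96.8 and 81.2 CPM on plastic and 166, 204 and 161 on the gel. Its level on plastic thus spread far more at passage 6 than at passage 3, with coefficients of variation of 47.3% and 4.46%.

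The widest gap between the passages, among genes with at least 5 CPM in every passage 3 library, was that of ENSRNOG00000006653, whose lowest passage 3 level was 8.32 times its highest passage 6 level. It stood at 24.6, 19.8 and 22.5 CPM on plastic and 18.1, 16.4 and 14.8 on the gel at passage 3, and at 1.78, 1.53 and 1.42 on plastic and 1.10, 0.613 and 0.952 on the gel at passage 6. Every gel library lay below every plastic library at each passage. The next widest gap, 5.96 times, was that of ENSRNOG00000003365, with 10.8, 7.15 and 17.6 CPM on plastic and 12.7, 8.22 and 19.9 on the gel at passage 3. At passage 6 it held 1.20, 0.544 and 0.101 CPM on plastic and 0.644, 0.368 and 0.224 on the gel. Its replicates kept the same order on both substrates, with number 2 lowest and number 3 highest at passage 3 and number 3 lowest and number 1 highest at passage 6.

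**Figure D2:**
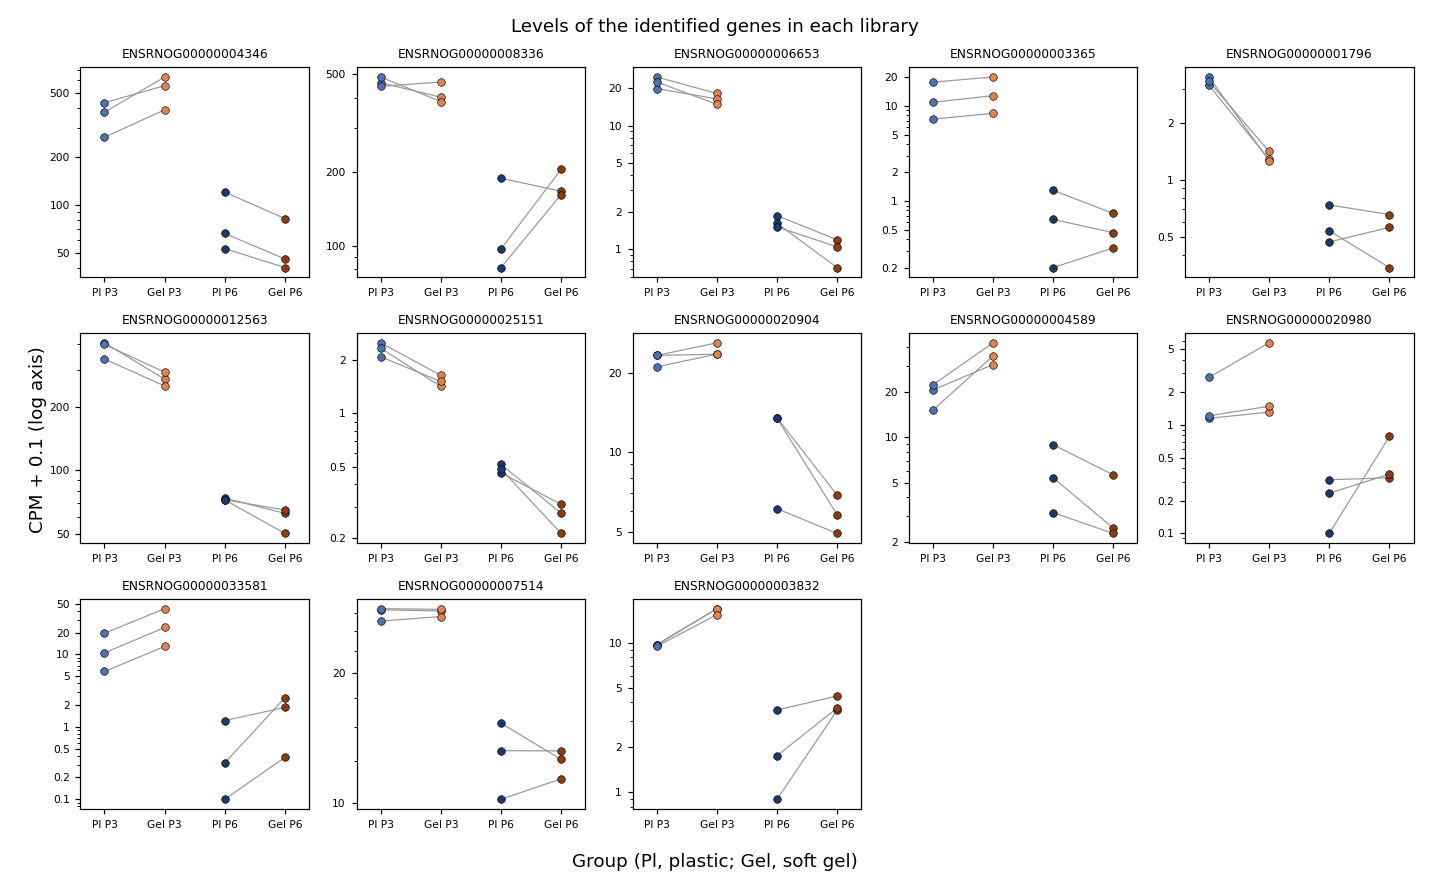
CPM + 0.1 on a log axis in each library (points) for the 13 genes given by identifier, with plastic and soft gel libraries of a pair joined by a grey line. ENSRNOG00000004346 shows lines that climb to soft gel at passage 3 and descend at passage 6, and in ENSRNOG00000012563 all lines descend at both passages.

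The spread between the 3 libraries of a group was wider at passage 6. The median coefficient of variation of the 70 genes was 13.6% on plastic and 15.2% on the gel at passage 3, and 38.5% and 38.0% at passage 6. Over all genes that passed the filter these medians were 9.82%, 12.3%, 17.8% and 16.3%. The coefficient was larger at passage 6 for 62 of the 70 genes on plastic and 63 on the gel, where 75.9% and 63.3% of all genes had a larger one. The rule bounded passage 3 levels from below and passage 6 levels from above only. The spread of the 70 genes is therefore not independent of how they were chosen. The genes are also less abundant at passage 6, and low counts vary more. A cut at a group mean of at least 10 CPM was therefore also used. At passage 6 the medians were then 34.8% for 20 of the 70 against 12.9% for all genes on plastic. On the gel they were 20.3% for 20 against 11.5%. At passage 3 they were 13.7% for 46 against 6.51% on plastic and 13.7% for 45 against 8.7% on the gel. Without both libraries of pair 3 of passage 6 the medians of the 70 genes were 37.5% and 37.1%.

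**Figure D3:**
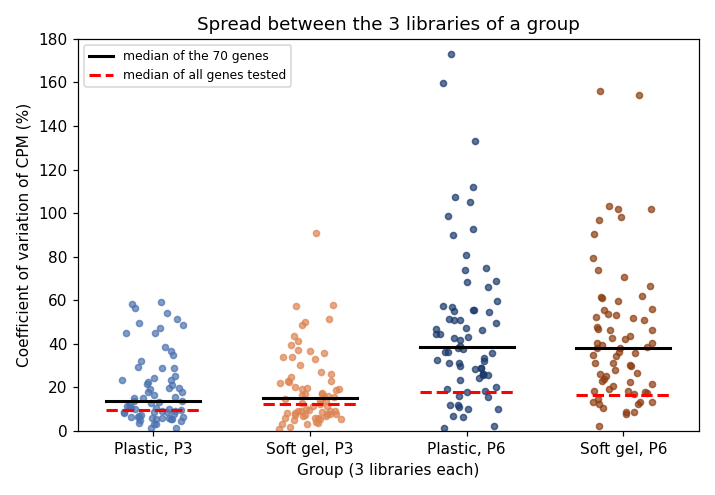
Coefficient of variation of CPM over the 3 libraries of each group for the 70 genes (points), with their median (black line) and the median of all genes tested (red dashed line). Both medians are higher at passage 6, and the median of the 70 genes lies above that of all genes in each of the 4 groups.

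Averaged over the substrates at passage 3, the coefficient of variation was highest for ENSRNOG00000020980, at 73.6%, and ENSRNOG00000033581, at 58.3%. The first held 1.05, 1.11 and 2.64 CPM on plastic and 1.21, 1.39 and 5.62 on the gel at passage 3, so that number 3 was high on both. The second held 10.4, 5.71 and 19.5 CPM on plastic and 23.5, 12.8 and 42.7 on the gel, again with number 3 highest and number 2 lowest on both. At passage 6 both had 0 counts in plastic library 2, which allows up to 0.0627 CPM, where the limit, 3 counts, covers counting error only. The second held 1.12 and 0.219 CPM in the other plastic libraries and 1.76, 0.280 and 2.42 on the gel at passage 6, and the first at most 0.683 CPM in any passage 6 library. The coefficient was lowest for ENSRNOG00000007514, at 2.82%, with 27.9, 26.3 and 28.1 CPM on plastic and 27.7, 26.9 and 28.0 on the gel at passage 3. At passage 6 this gene held 15.2, 13.1 and 10.1 CPM on plastic and 12.5, 13.1 and 11.3 on the gel. It was followed by ENSRNOG00000003832, at 3.38%, which held between 9.34 and 9.62 CPM on plastic at passage 3 and spread between 0.794 and 3.45 CPM on plastic at passage 6.

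The spread was shared within pairs. The same number was the lowest on both substrates for 42 genes at passage 3 and 44 at passage 6, beside 47.4% and 52.5% of all genes, and the highest on both for 50 and 47, beside 49.2% and 59.5%. At passage 3, number 2 was the lowest of the 3 libraries on both substrates for 31 of the 70 genes (44.3%), beside 19% of all genes tested, and number 3 was the highest on both for 29 (41.4%), beside 19.8%. At passage 6, number 2 was the lowest on both for 28 (40.0%), beside 20% of all genes, and number 1 the highest on both for 28, beside 17.6%. Across the 70 genes, the log2 deviations of plastic and soft gel libraries of a pair from their group means correlated with Pearson's r of 0.760, 0.851 and 0.850 for numbers 1, 2 and 3 at passage 3 and 0.639, 0.627 and 0.703 at passage 6. Over all genes r was 0.281, 0.463 and 0.490 and 0.556, 0.598 and 0.750. These correlations are across genes, which are not independent replicates, and the points share their libraries.

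**Figure D4:**
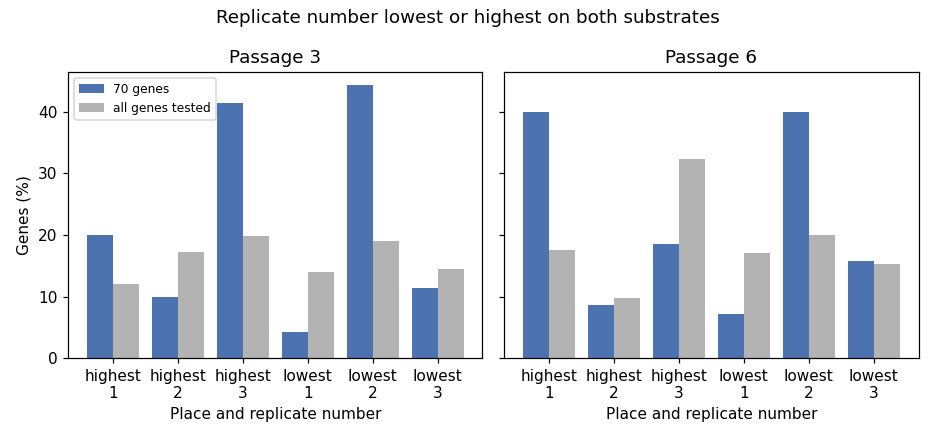
Share of genes (%) for which the replicate number on the x axis was the lowest or the highest of the 3 on both plastic and soft gel, for the 70 genes (blue bars) and all genes tested (grey bars), at each passage. Number 2 is most often the lowest at both passages, at 44.3% and 40.0% of the 70 genes.

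The first substrate comparison asked whether genes that were lower at passage 6 already differed between plastic and soft gel at passage 3. Few did by the test without pairs: 2 of 70 genes (2.86%) were lower on the gel and 0 higher at an edgeR quasi-likelihood adjusted p under 0.05, beside 2.3% of all genes tested (1.17% lower and 1.13% higher). The median log2 fold change of the 70 genes was -0.02, and that of all genes -0.01. Log2 fold changes here use TMM scaling, which puts soft gel lower than plain CPM does; on plain CPM the median gene was 0.12 higher on the gel at passage 3 and 0.16 at passage 6 on the log2 scale. With a term for each pair, 13 of 70 passed (18.6%), 7 higher and 6 lower, beside 18.8% of all genes (8.85% higher and 9.9% lower), so in both fits the share was near the background. That did not hold in every alternative: with pairs the share was 32.9%, 28.6% and 25.7% without pair 1, 2 or 3 of passage 6, beside 20.5%, 21.6% and 19.3% of all genes, and 5.71%, 4.29% and 5.71% without pair 1, 2 or 3 of passage 3, beside 7.33%, 7.76% and 7.05%. On TMM-scaled CPM the 3 soft gel libraries lay above the 3 plastic ones for 11 genes (15.7%), beside 15.7% of all genes, and below them for 17 (24.3%), beside 18.6%. All 3 pairs were higher on the gel for 20 genes and lower for 29, beside 27% and 30% of all genes. Of the log2 fold changes that passed with pairs, the 7 higher ran from 0.43 to 1.46 and the 6 lower from -1.52 to -0.57.

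ENSRNOG00000001796 fell most on the gel at passage 3. It held 3.04, 3.37 and 3.19 CPM on plastic and 1.18, 1.16 and 1.31 on the gel, without overlap. The log2 fold change was -1.52 ± 0.32 without pairs (SE, edgeR adjusted p = 0.0389) and -1.52 ± 0.28 with pairs (edgeR adjusted p = 0.00650). At passage 6 it held 0.637, 0.439 and 0.371 CPM on plastic and 0.557, 0.245 and 0.462 on the gel, levels that overlap.

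The other gene past the threshold without pairs was ENSRNOG00000012563, one of the 4 most abundant. It held 404, 397 and 338 CPM on plastic and 271, 293 and 252 on the gel at passage 3, and 72.4, 73.9 and 72.5 on plastic and 50.2, 62.5 and 64.9 on the gel at passage 6. Soft gel was below plastic without overlap at each passage. Its log2 fold change was -0.61 ± 0.12 at passage 3 (edgeR adjusted p = 0.0319) and -0.48 ± 0.12 at passage 6 (edgeR adjusted p = 0.0301), and with pairs -0.61 ± 0.09 and -0.48 ± 0.09 (edgeR adjusted p = 0.00171 and 0.00352). Without any 1 of the 6 passage 3 libraries neither gene passed at passage 3 in the fit without pairs, with adjusted p up to 0.159 for the first and 0.136 for the second, and the count was 0, beside 0.227% to 0.542% of all genes.

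At passage 6, where the genes had dropped, more of them were lower than higher on the gel with TMM scaling. The scaling matters for this direction. On plain CPM the 70 genes together took 0.0883% of counts on plastic and 0.0913% on the gel there. The median of all genes tested was 0.16 higher on the gel on the log2 scale of plain CPM. The rule capped the plain CPM of every passage 6 library, on plastic and on the gel alike. All genes tested were not chosen in this way, and how far the rule shaped the shares below was not tested. Without pairs 5 of 70 (7.14%) were lower and 0 higher, beside 9.96% of all genes tested in either direction, 5.09% lower and 4.87% higher. On TMM-scaled CPM the soft gel libraries lay below the plastic ones without overlap for 10 genes (14.3%), beside 12.2% of all genes, and above them for 0, beside 11.4%. All 3 pairs were lower on the gel for 26 genes (37.1%), beside 25.6%, and higher for 11 (15.7%), beside 25.5%. With pairs 27 passed (38.6%), beside 24.9% of all genes: 20 were lower (28.6%), beside 12.6% of all genes, and 7 higher, beside 12.3%. The 20 log2 fold changes ran from -2.43 to -0.43 with a median of -0.82, and the 7 from 0.55 to 1.72 with a median of 0.92. The median over the 70 genes was -0.15 without pairs and -0.17 with pairs, where the median over all genes was 0.00 in both. By pair, 49, 41 and 33 of the 70 genes were below 0 in pairs 1, 2 and 3, with median log2 differences of -0.31, -0.24 and 0.021.

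The lower calls at passage 6 depended on the model. With pairs, the 27 genes became 24 (8 higher and 16 lower), 22 (8 and 14) and 23 (3 and 20) without pair 1, 2 or 3 of passage 6, where 19.7%, 21.8% and 17.3% of all genes passed. Without pairs, 0 genes passed when only the 6 libraries of passage 6 were fitted, beside 1.35% of all genes, and 0 by limma-voom with sample weights, beside 6.02%. The count became 8 (4 higher and 4 lower) without plastic library 1 of passage 6, beside 8.27% of all genes, and 8 (1 and 7) without plastic library 3, beside 9.66%. It was 3 without both libraries of pair 3, beside 6.77%. Without plastic library 1 of passage 6 the median over the 70 genes was -0.0058.

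ENSRNOG00000025151 had the lowest fold change of the 5. It held 0.364, 0.418 and 0.388 CPM on plastic and 0.209, 0.175 and 0.112 on the gel at passage 6, without overlap. These levels rest on 24, 20 and 23 counts on plastic and 12, 10 and 8 on the gel. The log2 fold change was -1.40 ± 0.32 without pairs (edgeR adjusted p = 0.0201) and -1.43 ± 0.37 with pairs (edgeR adjusted p = 0.0203). At passage 3 its levels were 2.39, 2.23 and 1.98 CPM on plastic and 1.54, 1.32 and 1.41 on the gel, which did not pass (edgeR adjusted p = 0.189 without pairs, 0.114 with pairs). Its call at passage 6 was lost without plastic library 2, without soft gel library 3 and when pair 3 of that passage was left out (edgeR adjusted p = 0.0576, 0.0647 and 0.0803, in that order). The call was also lost by limma-voom with sample weights (limma adjusted p = 0.194) and with only the 6 libraries of passage 6 (edgeR adjusted p = 0.216).

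ENSRNOG00000020904 differed by substrate at passage 6 and was nearly level at passage 3. It held 23.1, 20.9 and 23.1 CPM on plastic and 25.8, 23.4 and 23.4 on the gel at passage 3, and 13.3, 6.02 and 13.4 on plastic and 5.71, 4.84 and 6.79 on the gel at passage 6. On plain CPM plastic library 2 of passage 6 lay within the range of the soft gel libraries, and on TMM-scaled CPM all 3 plastic libraries lay above them. The log2 fold change at passage 6 was -1.08 ± 0.23 without pairs (edgeR adjusted p = 0.0152) and -1.03 ± 0.15 with pairs (edgeR adjusted p = 0.00114), and at passage 3 it was -0.015 in both fits (edgeR adjusted p = 0.984 and 0.958). When pair 3 of passage 6 was left out, the edgeR adjusted p without pairs was 0.0518. It was 0.146 with only the 6 libraries of passage 6, and the limma-voom adjusted p with sample weights was 0.0852.

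ENSRNOG00000006653, the gene with the widest gap, was also among the 5. Its log2 fold change on the gel was -1.002 ± 0.20 at passage 6 without pairs (edgeR adjusted p = 0.0114). At passage 3 it was -0.57 ± 0.18 without pairs (edgeR adjusted p = 0.125) and -0.57 ± 0.14 with pairs (edgeR adjusted p = 0.0191).

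Without pairs, 1 gene, ENSRNOG00000012563, was lower on the gel at both passages and 0 were higher at both, beside 0.825% of all genes in each direction. Set side by side in the fit with pairs, 36 of the 70 genes passed at neither passage, 7 at passage 3 only, 21 at passage 6 only and 6 at both. Passing at only one passage does not show that the passages differ, which the interaction tests. Of the 6, 3 were lower on the gel at both passages, beside 5.76% of all genes tested, 1 was higher at both, beside 5.63%, and 2 were higher at passage 3 and lower at passage 6. Opposite calls were made for 0.246% of all genes.

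**Figure D5:**
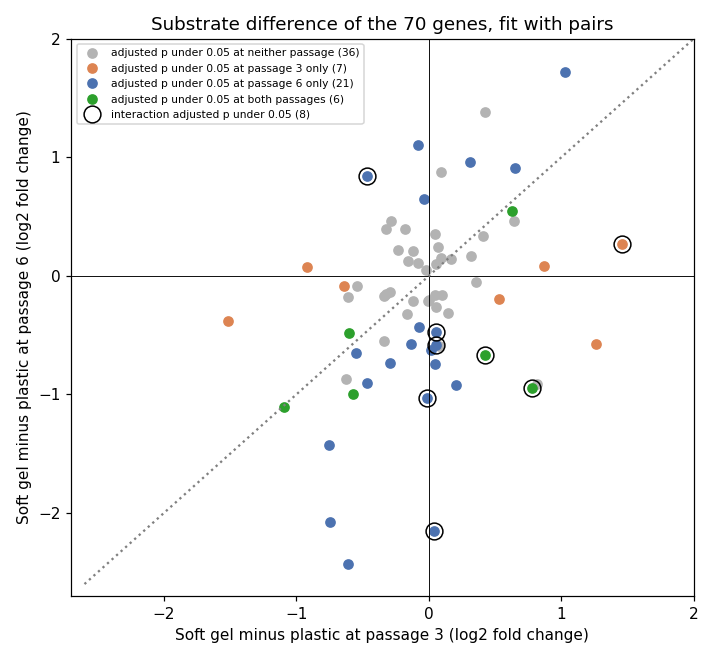
Log2 fold change of soft gel against plastic at passage 3 (x axis) and passage 6 (y axis) for the 70 genes in the fit with pairs, coloured by the passage at which the adjusted p was under 0.05, with circles around the 8 genes past the threshold in the interaction and a dotted line of equal change. The 20 genes lower on the gel at passage 6 reach down to -2.43.

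An interaction term asked if the substrate difference changed from passage 3 to passage 6. It equals the passage difference on the gel minus that on plastic, so it is built from the differences that chose the 70 genes. All genes tested were not chosen in this way, so the shares below are not independent of the rule. Without pairs edgeR called 0 of the 70 genes, with 10 (14.3%) at an unadjusted p under 0.05, beside 7.12% of all genes, and DESeq2 called 0 as well, beside 0.703%; edgeR called 0% of all genes tested. With pairs 8 of 70 passed (11.4%), beside 2.14% of all genes (1.34% more negative at passage 6 and 0.805% more positive). For 7 of the 8 the soft gel difference was more negative at passage 6 than at passage 3, and for 1 it was more positive. Of these 8, 4 had passed at passage 6 alone as lower on the gel. Leaving out pair 1, 2 or 3 of passage 3 turned the 8 into 2, 1 and 1, where 0.228%, 0.288% and 0.221% of all genes passed, and leaving out pair 3 of passage 6 into 3, beside 0.973%. Without pair 1 of passage 6 there were 11 (15.7%), beside 3.09%, of which 6 were more negative and 5 more positive, and 5 of the 11 were among the 8. Without pair 2 of passage 6 there were 7, with 6 more negative, beside 3.19%.

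The lowest interaction p-values with pairs belonged to the 2 genes that passed in opposite directions, chosen after their values were seen. ENSRNOG00000004346 was higher on the gel in all 3 pairs at passage 3 and lower in all 3 at passage 6, with log2 fold changes of 0.43 ± 0.09 (edgeR adjusted p = 0.00945) and -0.67 ± 0.09 (edgeR adjusted p = 0.000661). The difference was -1.09 ± 0.12 (edgeR adjusted p = 0.00556). Its plastic and soft gel libraries overlapped at each passage, and without pairs the interaction had an adjusted p of 0.679 by edgeR.

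ENSRNOG00000004589 held 20.6, 15.1 and 22.3 CPM on plastic and 30.5, 34.9 and 42.6 on the gel at passage 3, and 5.28, 3.05 and 8.84 on plastic and 2.38, 2.19 and 5.53 on the gel at passage 6. Soft gel was above plastic without overlap at passage 3, and at passage 6 the groups overlapped while every pair was lower on the gel. With pairs the log2 fold changes were 0.78 ± 0.15 and -0.94 ± 0.16 (edgeR adjusted p = 0.00664 and 0.00287), and the difference was -1.72 ± 0.22 (edgeR adjusted p = 0.00831). The difference missed the threshold without pair 2 or pair 3 of passage 3 (edgeR adjusted p = 0.0576 and 0.0622), and without pairs in the model (edgeR adjusted p = 0.509).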

How the data were processed

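Libraries of polyadenylated RNA were read in pairs of 150 bases, per the labels' protocols. The authors deposited raw, unnormalized counts for every Ensembl gene in 1 table. HISAT2 2.1.0, FastQC 0.11.5, Cuffnorm 2.2.1 and Cufflinks appear in the submitters' processing notes; which program counted the reads, with which strand setting and annotation, is not given in the sources used here, so reads of overlapping genes or near-identical copies may be counted for the wrong gene. A RefSeq table of another assembly matched 0 of 32623 identifiers, so gene lists, markers, promoters and motifs were not used here.

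CPM is the count divided by the column sum. Counts were tested with R 4.3.3 and edgeR 4.0.16 (filterByExpr, minimum count 10 and total 15, TMM, quasi-likelihood F test, 4 groups in 1 fit, Benjamini-Hochberg over 14660 genes, threshold 0.05), with DESeq2 1.42.0 and limma 3.58.1 as alternatives; the fits were tested on simulated data. Standard errors are the absolute fold change over the root of F. Figures used matplotlib 3.10.9.

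Replicates of a group differed beyond sampling noise (chi-square per degree of freedom from 30.9 to 346), so none was treated as a duplicate. Over all genes, deviations of same-numbered plastic and soft gel libraries correlated at 0.281 or more, in all 6 pairs, so plastic and gel libraries of 1 passage were taken as paired, a pairing read from the data and not from the labels; between passages r ran from -0.303 to 0.0350. The fit with pairs has a term for each passage and number, and its common biological coefficient of variation was 13.3%, against 29.6% without. The spread of a gene is pooled over both passages, although it was wider at passage 6. A p-value covers only the spread among these libraries, which may be technical, since the labels do not say what the replicates are beyond biological, and PCR copies are not marked.

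Genes given by identifier were the first 2 of each part of a rule: highest passage 3 level, widest gap, largest substrate change past the threshold by passage and direction, lowest interaction p, and highest and lowest spread at passage 3. No interaction passed without pairs, so the fit with pairs was used there. The members and lists were chosen with earlier results of these data known.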

Additional observations from a re-analysis of the deposited data

Results flagged for a closer look

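The substrate difference of 8 of the 70 genes differed between passage 3 and passage 6 by the interaction test of the fit with pairs, beside 2.14% of all genes tested; 2, 1 and 1 of the 70 passed without pair 1, 2 or 3 of passage 3. The 2 with the lowest p-values were ENSRNOG00000004346, with a log2 difference between the passages of -1.09 (soft gel higher in 3 of 3 pairs at passage 3 and lower in 3 of 3 at passage 6), and ENSRNOG00000004589, with -1.72 and the same directions in the same numbers of pairs. Neither passed without pairs in the model. ENSRNOG00000004589 had edgeR adjusted p-values of 0.0576 and 0.0622 when pair 2 or pair 3 of passage 3 was left out. The interaction is built from the passage differences that chose the 70 genes, so its share is not independent of the rule.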

How the results depend on the processing

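By the form of the rule, the count of 70 genes can only hold or fall with a higher threshold and only hold or rise without a library. It was 25 with a threshold of 2 times and lay between 71 and 104 when 1 library was left out, 104 without plastic library 1 of passage 6. It was 70 with TMM-scaled CPM, of which 64 were among the same genes. Without pairs, the 2 genes called at passage 3 became 5 by DESeq2, 1 with no filter on low counts, 13 with the replicate block, 5 without both libraries of pair 3 of passage 6, 18 by limma-voom with sample weights and 16 with only the 6 libraries of passage 3 (8.57%, 1.55%, 18.8%, 6.95%, 18.1% and 15.1% of all genes), and between 0 and 4 without 1 library. The 5 genes at passage 6 became 10 by DESeq2, 27 with the replicate block, 3 without both libraries of pair 3, 0 by limma-voom and 0 with only the 6 libraries of passage 6 (15.5%, 24.9%, 6.77%, 6.02% and 1.35% of all genes), and between 5 and 8 without 1 library. The interaction count of 0 became 8 with the replicate block (2.14% of all genes), and lay between 0 and 1 without 1 library. The median log2 fold change at passage 3 lay between -0.12 and 0.030 and that at passage 6 between -0.26 and -0.0058 without 1 library. In the fit with pairs, leaving out pair 1, 2 or 3 of passage 3 turned the 13 genes at passage 3 into 4, 3 and 4 (7.33%, 7.76% and 7.05% of all genes) and the 8 of the interaction into 2, 1 and 1 (0.228%, 0.288% and 0.221%). Leaving out pair 1 or 2 of passage 6 gave 23 and 20 genes at passage 3 (20.5% and 21.6% of all genes) and 11 and 7 in the interaction (3.09% and 3.19%), and leaving out pair 3 of passage 6 gave 3 in the interaction (0.973%). Leaving out pairs and using DESeq2 size factors, for the fit with pairs or for CPM, were chosen after seeing the data. For 6 genes named for their substrate change or interaction there were 90 alternatives. Of these, 67 kept the direction and the side of the threshold, 23 kept the direction only, and 0 changed direction. Some of the 90 left out only libraries of the passage not compared, which barely moved the fold change. The 2 genes named at passage 3 lost their calls whenever 1 passage 3 library was left out. The cause of these changes was not tested; fits with fewer libraries estimate the spread from fewer values. Depth was at least 47834926 counts, and genes near 1 CPM rest on few counts at passage 6.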

Other observations

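Number 2 was the lowest library on both substrates at both passages for 16 of the 70 genes (22.9%), where this held for 613 of all 14660 genes tested (4.18%). Within passage 3 and passage 6 it was the lowest on both for 44.3% and 40.0% of the 70 genes, beside 19% and 20% of all genes. Higher shares within the passages overlap more often even where the passages are not linked, and a link was not tested. Numbers did not pair the passages over all genes, where the deviations of passage 3 and passage 6 libraries of number 2 correlated at -0.237 on plastic and -0.250 on soft gel. Across the 70 genes the same correlations were 0.402 and 0.435, for number 1 they were 0.125 and 0.322, and for number 3 they were -0.022 and -0.0077. These values are across genes and were noticed after the data were seen.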
